A study of Mus musculus with 6 samples.

Results

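The transcription factors Tbx21, Eomes, Hlx, Runx3, Runx1, Gata3, Maf and Prdm1 direct which kind of helper cell a CD4+ T cell becomes, and their RNA was followed in cells labelled as lacking Wtap and in wild-type cells. They were taken by name, with no threshold on their values, from a list drawn up with earlier results of these data known, and are 8 of 55177 genes with a matched transcript and 8 of the 17610 genes that had enough counts to be tested. Wtap belongs to the nuclear enzyme complex that places N6-methyladenosine (m6A) in mRNA, as its regulatory part. The Wtap KO group held 3 libraries and the WT group 3 libraries, all of CD4+ cells of C57BL/6J mice. The protocols give both groups the same handling. Cells first received 1 µM 4-hydroxytamoxifen for 24 h, described as the step that depletes Wtap. They were then stimulated for 40 to 48 h by antibodies to CD3 (1 µg/mL) and CD28 (2.5 µg/mL) in a Th1 medium that held 10 ng/mL IL-12 and 10 µg/mL of an antibody to IL-4. Expansion followed in IL-2 at 200 IU/mL, and cells were harvested on day 4. Not given in the sources used here are the driver of any Cre, whether WT cells had it, the deleted part of Wtap, the age of the mice and the animal behind each library. The p-values therefore measure only the spread between these libraries, which may be technical.

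T-bet (encoded by Tbx21) and GATA3 are the opposing master regulators of the Th1 and Th2 fates: T-bet switches on interferon-gamma and restrains GATA3, whereas GATA3 opens the Th2 cytokine locus. Eomes is a T-box relative of T-bet, Hlx a homeobox partner of T-bet, and Runx3 binds DNA together with T-bet and helps to silence Il4. Runx1 acts earlier, in T cell development and in restraint of resting cells. c-Maf (encoded by Maf) activates Il4, Il10 and Il21, and Blimp-1 (encoded by Prdm1) is a repressor that ends proliferation and promotes terminal differentiation. The culture used here, with IL-12 present and IL-4 blocked, favours the Th1 side.

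Some pairs of sequences are needed to follow the transcript results. Maf has 2 annotated transcripts in the files, which part at 1 splice point. Maf-201 is spliced there, and Maf-202 reads straight on. The strings run over that point, in lower case up to it and in capitals past it (GRCm38, minus strand, from chr8:115705755-115705769 onward; Maf-201 continues at chr8:115693178-115693192 and Maf-202 at the adjoining bases, chr8:115705740-115705769 in all).
Maf-201: tcccgaatttttcatGTACCCAAGGGACTC
Maf-202: tcccgaatttttcatGTGAGTGTGACACGC
In Maf-202 the annotated stop codon begins after 1 base past the splice point, so Maf-202 codes for 370 residues and Maf-201 for 380, from 1110 and 1140 coding bases. That 1 base is the same in both, so Maf-201 extends the c-Maf protein of Maf-202 at its carboxyl end.

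The Runx genes each have a distal and a proximal promoter, and their proteins recognise the letters ACCACA. The distal promoters are shown because most Runx RNA here came from transcripts that start there. Both hold a pair of ACCACA, in capitals, separated by 2 bases (sequences from RefSeq, GRCm38.p6; Runx3 plus strand, chr4:135120503-135120532; Runx1 minus strand, chr16:92826025-92826054).
Runx3 distal: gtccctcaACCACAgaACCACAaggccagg
Runx1 distal: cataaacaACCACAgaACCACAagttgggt
The Runx3 pair begins 134 and 126 bases before the RefSeq start, and the Runx1 pair 28 and 36 bases after it. RefSeq promoter windows (300 bases) were matched for 7 of the 8 genes, 9 windows in all. ACCACA on either strand occurred in 2 of these 9 windows, the distal windows of Runx3 and Runx1. Among 32851 windows of the same length, 16.8% held it on either strand, 1.81% held it 2 or more times, and 7 windows (0.0213%) held a pair on 1 strand separated by 2 bases. The spacing counted is the one seen in the 2 Runx windows, so the last share is no test of them. A match of letters is a description and not a measured binding site.

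Depth ranged from 37121040 to 44039467 estimated counts per Wtap KO library and from 32363139 to 38546728 per WT library. Total Wtap RNA was at 117 ± 3.00 CPM (counts scaled to library size) in Wtap KO cells and 105 ± 9.99 CPM in WT cells (SD, n = 3 each), and did not pass edgeR's quasi-likelihood test (adjusted p = 0.371). Since the deleted part is not given, the total checks nothing. Its transcript Wtap-205 was at 5.09 ± 0.435 TPM (a level per transcript length and library size) in Wtap KO cells and 22.7 ± 4.38 TPM in WT cells, a fall past the threshold (edgeR adjusted p = 0.0210). Wtap-201 rose in the same test, with 38.3 ± 2.94 TPM in Wtap KO cells and 17.6 ± 1.28 TPM in WT cells (adjusted p = 0.0296), and Wtap-203 was at 9.68 ± 1.60 TPM in Wtap KO cells and 0.079 ± 0.136 TPM in WT cells (adjusted p = 0.0615), so these values do not check the knockout label either. Library 3 of Wtap KO stood apart as the only one with a male pattern, with Kdm5d at 63.3 CPM against at most 3.53 CPM in the other libraries. The T cell markers Cd3e, Cd3d, Cd3g, Cd4, Trac, Cd28 and Lck summed to 2703 to 2887 TPM in Wtap KO libraries and 3268 to 3564 TPM in WT libraries. Of the 7, 2 were called lower in Wtap KO, Cd3g and Cd4, against 3.49% of all genes tested. Trac, the largest part of the sum, was at 1223 ± 121 TPM in Wtap KO and 1539 ± 143 TPM in WT and was not called (edgeR adjusted p = 0.121). Cd28 and Lck overlapped between the groups. Of the CD8 markers, Cd8a reached at most 1.06 TPM in any library, and Cd8b1 had 13.4, 12.997 and 10.3 TPM in Wtap KO libraries and 7.73, 6.84 and 7.18 TPM in WT libraries and was called higher (edgeR adjusted p = 0.0268).

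Of the 8 regulators, only Gata3 passed the threshold, and it was lower in Wtap KO cells. In edgeR's quasi-likelihood test 1 of 8 fell, 0 rose and 7 did not pass an adjusted p of 0.05. Over all 17610 genes tested, 3.49% were called lower, 5.75% higher and 9.23% in either direction. At an unadjusted p under 0.05 the same test had 3 regulators lower (Gata3, Prdm1 and Runx1) and 1 higher (Runx3), and over all genes tested 12.2% were lower and 14% higher at that p, 26.3% in either direction. The DESeq2 Wald test called 2 lower and 0 higher, and over all 17610 genes it called 1211 lower and 1365 higher. The Wtap KO and WT libraries did not overlap by CPM for 4 of 8 regulators, with Runx3 above WT and Gata3, Runx1 and Prdm1 below, and this held for 32.7% of all genes tested. The median log2 fold change of the 8 was -0.04, and that of all genes tested was -0.00058. In bulk RNA, fewer cells that carry a factor and less of its RNA per cell cannot be told apart.

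**Figure D1:**
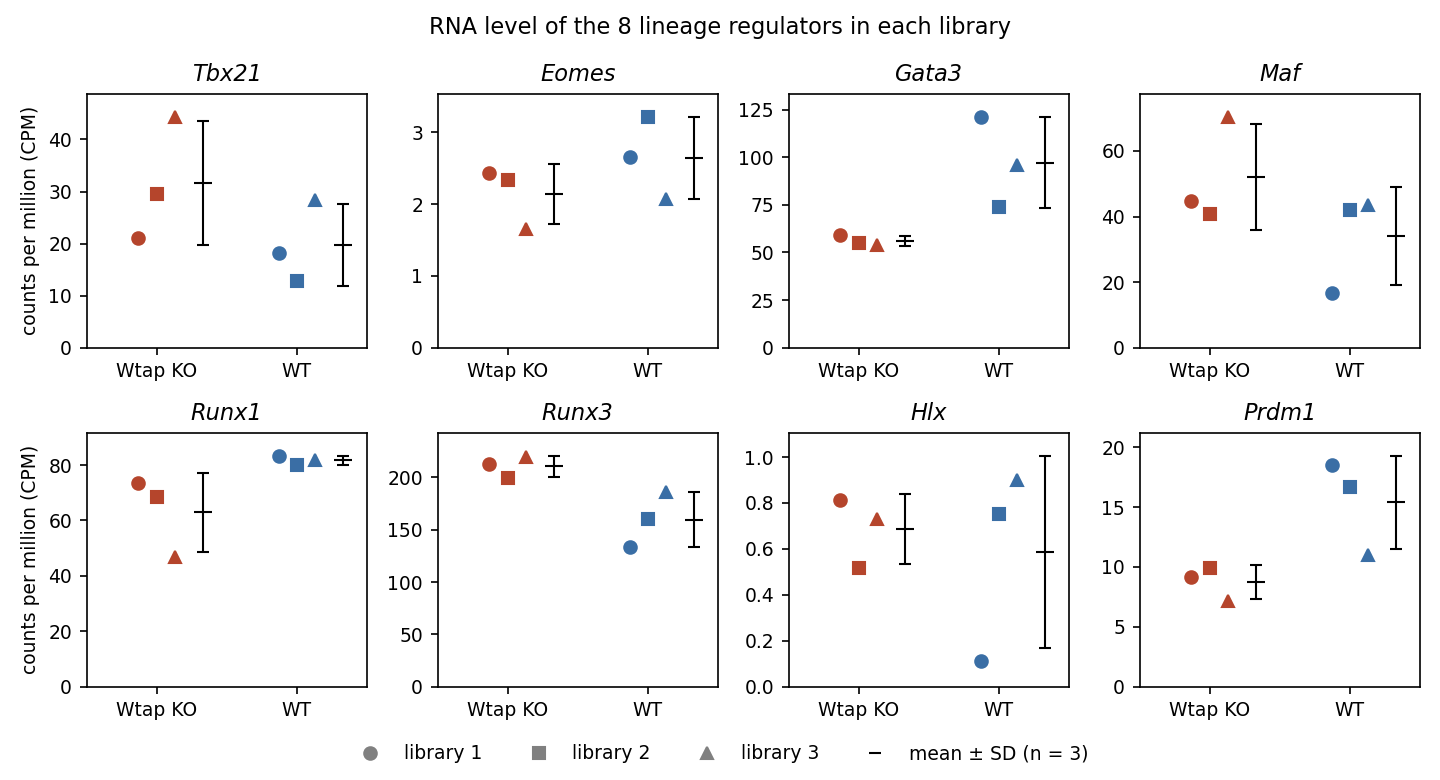
RNA level of each of the 8 regulators in every library, in CPM (counts scaled to library size, each vertical axis from 0), with Wtap KO libraries in red left of WT libraries in blue and the mean ± SD (n = 3) beside them in black. Gata3, Runx1 and Prdm1 lie lower in all 3 Wtap KO libraries, Runx3 lies higher, and Tbx21, Eomes, Hlx and Maf overlap.

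Gata3 (ENSMUSG00000015619, GRCm38 chromosome 2, 9857078 to 9890034, minus strand) had 59.1, 55.2 and 53.8 CPM in the Wtap KO libraries, against 121, 73.7 and 96.1 CPM in the WT libraries. The Wtap KO libraries lay close together and all below the lowest WT library, while WT libraries were spread out with WT 1 highest. The means were 56.0 ± 2.78 CPM in Wtap KO and 97.0 ± 23.8 CPM in WT (SD, n = 3 each), a log2 fold change of -0.79 ± 0.17 (SE; edgeR adjusted p = 0.0244). Nearly all of its estimated counts belonged to 1 transcript, Gata3-201, at 99.9% ± 0.0956 of the gene in Wtap KO and 99.8% ± 0.0784 in WT. Gata3-201 stood at 19.5, 17.2 and 17.8 TPM in Wtap KO libraries and at 38.4, 23.3 and 29.3 TPM in WT libraries. The 2 groups were again separate, yet with the wider adjustment over 46935 transcripts the fall did not pass (log2 fold change -0.79, edgeR adjusted p = 0.144). The gene-level call was also lost without any single Wtap KO library (adjusted p 0.0905 to 0.107, with log2 fold changes of -0.83, -0.78 and -0.76) and with limma on log2(TPM + 1), where the log2 fold change was -0.68 (adjusted p = 0.0514). It was kept without each WT library, with a log2 fold change of -0.60 (edgeR adjusted p = 0.0132) without WT 1.

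The genes most like Gata3 in their pattern over the 6 libraries, by the root mean square difference of centred log2 CPM among 8337 genes, were Rmi2, Higd1a and Babam2. Their differences were 0.104, 0.117 and 0.127 on the log2 scale, and the median over the genes was 0.453. Rmi2, a subunit of a complex that resolves recombining DNA, was at 9.73, 10.2 and 10.9 CPM in Wtap KO libraries and at 20.1, 12.9 and 17.4 CPM in WT libraries. Like Gata3 it was highest in WT 1. Higd1a is a mitochondrial protein and Babam2 a subunit of a complex that binds BRCA1.

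Prdm1 (ENSMUSG00000038151, chromosome 10, 44437177 to 44528501, minus strand) was at 9.12, 9.93 and 7.15 CPM in Wtap KO libraries and at 18.5, 16.7 and 11.0 CPM in WT libraries. Every Wtap KO library was below every WT library, with WT 3 nearest to them. Means of 8.73 ± 1.43 CPM in Wtap KO and 15.4 ± 3.91 CPM in WT (SD, n = 3 each) gave a log2 fold change of -0.82 ± 0.22 (SE), the largest of the 8 in size, and an edgeR adjusted p of 0.0503, just short of the threshold. It passed with the DESeq2 Wald test (adjusted p = 0.00476), with no filter on low counts and with an offset on GC content. Prdm1 also passed with DESeq2 size factors, with a replicate block (a term for the library number) and without WT 3. Its side of the threshold thus depended on the setting. With an offset on gene length it did not pass (log2 fold change -0.62, edgeR adjusted p = 0.134), and with limma on log2(TPM + 1) the log2 fold change was -0.41.

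The 2 main Prdm1 transcripts differed in how they stood between the groups. Prdm1-201, with 8 exons and 856 coded residues, had 0.886, 1.29 and 1.03 TPM in Wtap KO libraries and 2.86, 2.45 and 1.53 TPM in WT libraries. Prdm1-204, with 7 exons and 838 coded residues, had 1.97, 1.24 and 0.842 TPM in Wtap KO libraries and 1.38, 1.54 and 0.935 TPM in WT libraries. The first was lower in all 3 Wtap KO libraries and the second overlapped. Prdm1-201 had a log2 fold change of -1.14 (edgeR adjusted p = 0.151) and made up 63.7% ± 12.6 of the gene's counts in Wtap KO against 78.5% ± 2.91 in WT (SD, n = 3 each), a shift that did not pass the usage test (limma adjusted p = 0.466). By summed TPM the gene's groups overlapped.

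Runx3 (ENSMUSG00000070691, chromosome 4, 135120652 to 135177990, plus strand) was the most abundant of the 8 and was at 213, 200 and 220 CPM in Wtap KO libraries and at 133, 160 and 186 CPM in WT libraries. All Wtap KO libraries were above all WT libraries. The means were 211 ± 10.1 CPM in Wtap KO and 160 ± 26.3 CPM in WT (SD, n = 3 each). The log2 fold change of 0.40 ± 0.13 (SE) did not pass (edgeR adjusted p = 0.0904), and only without WT 3 did it do so (0.52, adjusted p = 0.0319). The RNA came almost wholly from the distal promoter shown above: Runx3-201, the only transcript that starts there, held 94.9% ± 0.106 of the gene's summed TPM in Wtap KO and 92.6% ± 0.247 in WT.

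Runx1 (ENSMUSG00000022952, chromosome 16, 92601466 to 92826149, minus strand) went the other way, at 73.4, 68.5 and 46.8 CPM in Wtap KO libraries and 83.4, 80.0 and 81.7 CPM in WT libraries. WT libraries were nearly equal, and Wtap KO 3 was far below the rest. Its log2 fold change was -0.38 ± 0.16 (SE; edgeR adjusted p = 0.177), and -0.20 without Wtap KO 3, the male-pattern library, or -0.17 with an offset on gene length. By TPM the groups overlapped, at 21.8, 16.8 and 11.1 in Wtap KO libraries and 17.4, 18.7 and 17.7 in WT libraries.

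Within Runx1, 1 distal and 1 proximal transcript stood in opposite order. Runx1-201, the long distal form with 465 coded residues, was at 10.3, 9.71 and 7.15 TPM in Wtap KO libraries and at 13.2, 12.8 and 12.3 TPM in WT libraries. Runx1-203, a proximal form with 451 coded residues, was at 5.23, 2.74 and 2.08 TPM in Wtap KO libraries and at 0, 0.333 and 1.63 TPM in WT libraries. The first was lower and the second higher in every Wtap KO library, while the distal Runx1-204 and Runx1-207 and the proximal Runx1-202 overlapped. Summed over the 3 distal transcripts, Runx1 stood at 15.9, 13.2 and 8.70 TPM in Wtap KO libraries and at 16.5, 17.9 and 15.6 TPM in WT libraries, and these sums overlapped. The 4 proximal transcripts summed to 5.98, 3.57 and 2.42 TPM in Wtap KO libraries and to 0.961, 0.779 and 2.10 TPM in WT libraries, without overlap. Of both together, the distal share of Runx1 TPM was 72.6%, 78.7% and 78.2% in Wtap KO libraries and 94.5%, 95.8% and 88.1% in WT libraries. The 2 groups did not overlap by this share, a grouping made after the values were seen and given with no test. In the usage test, the log-ratio of Runx1-201 to the rest of the gene was lower by a log2 value of -1.42 ± 0.25 (SE) and did not pass (limma adjusted p = 0.125), and Runx1-203 did not pass (limma adjusted p = 0.495). Runx1-203 shares exons with Runx1-201, so the split rests on kallisto's assignment of reads, whose error is not in the files.

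Tbx21 (ENSMUSG00000001444, chromosome 11, 97098071 to 97115331, minus strand), the Th1 master regulator, was at 21.0, 29.6 and 44.4 CPM in Wtap KO libraries and at 18.1, 12.8 and 28.3 CPM in WT libraries. Wtap KO 3 was the highest and the groups overlapped, since WT 3 exceeded Wtap KO 1. The means of 31.6 ± 11.8 CPM in Wtap KO and 19.7 ± 7.84 CPM in WT (SD, n = 3 each) gave a log2 fold change of 0.68 ± 0.33 (SE) that did not pass (edgeR adjusted p = 0.242). It was 0.36 without Wtap KO 3, the male-pattern library, 0.45 without WT 2 and 1.03 without WT 3, and passed in none of these settings. All of its counts were on 1 transcript, Tbx21-201, with 530 coded residues.

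Eomes and Hlx were scarce. Eomes (ENSMUSG00000032446, chromosome 9, 118478212 to 118486132, plus strand) was at 2.44, 2.34 and 1.66 CPM in Wtap KO libraries and at 2.65, 3.22 and 2.07 CPM in WT libraries, with overlapping groups and a log2 fold change of -0.30 ± 0.25 (SE; edgeR adjusted p = 0.494). Hlx (ENSMUSG00000039377, chromosome 1, 184727140 to 184732619, minus strand) had only 31, 21 and 33 estimated counts in Wtap KO libraries and 4, 24 and 33 in WT libraries. WT 1 was the lowest of all for Hlx and the rest were alike. Its log2 fold change of 0.23 ± 0.57 (SE; edgeR adjusted p = 0.847) turned to -0.27 without WT 1, to -0.27 with an offset on gene length and to -0.03 with limma on log2(TPM + 1), so no direction can be given.

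**Figure D2:**
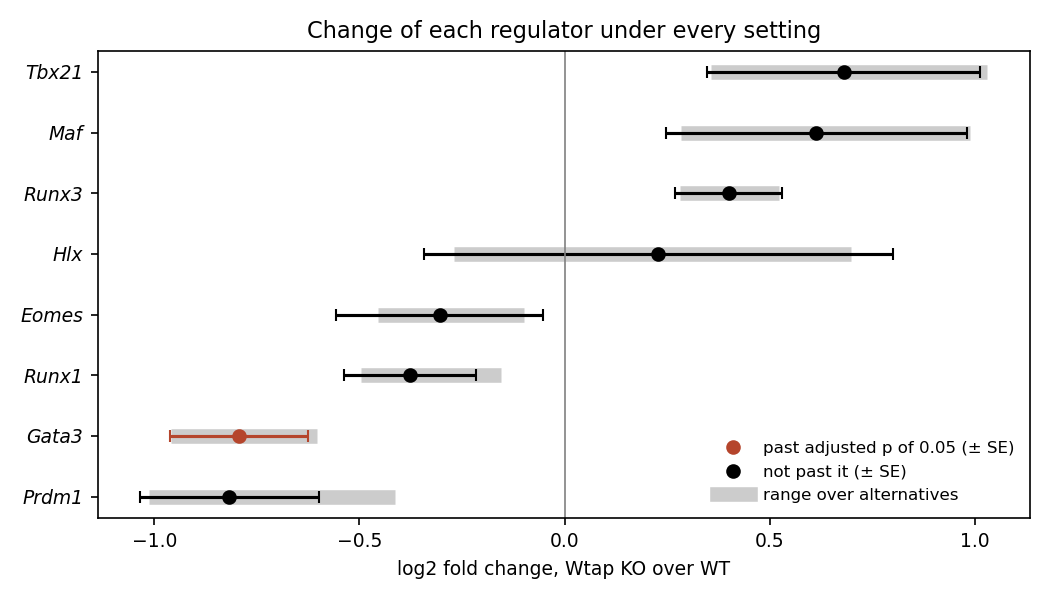
Log2 fold change of each regulator, Wtap KO over WT, as points with the standard error, over grey bars that span the values under the 15 alternative settings. The red point, Gata3 at -0.79, is the only one past an adjusted p of 0.05, and the bar of Hlx crosses 0.

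Maf (ENSMUSG00000055435, chromosome 8, 115682942 to 115707794, minus strand) did not pass as a gene but differed in its transcripts. Gene totals were 44.9, 40.7 and 70.5 CPM in Wtap KO libraries and 16.7, 41.9 and 43.4 CPM in WT libraries. Wtap KO 3 was the highest, WT 1 the lowest, and the rest were alike. The log2 fold change was 0.61 ± 0.37 (SE; edgeR adjusted p = 0.342), and it was 0.28 without WT 1 and 0.33 without Wtap KO 3. On the TPM scale, which takes transcript length into account, the gene stood at 12.1, 10.5 and 18.8 in Wtap KO libraries and at 3.67, 9.24 and 8.78 in WT libraries, and the groups did not overlap.

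Maf-201, the spliced form, was at 9.52, 8.30 and 14.4 TPM in Wtap KO libraries and at 2.09, 5.32 and 4.36 TPM in WT libraries. Maf-202, the form that reads through, was at 2.59, 2.18 and 4.41 TPM in Wtap KO libraries and at 1.58, 3.92 and 4.42 TPM in WT libraries. The spliced form was thus higher in every Wtap KO library, while the other overlapped. As a share of the gene's estimated counts, Maf-201 was at 64.6%, 65.3% and 61.8% in Wtap KO libraries and at 39.5%, 40.2% and 32.9% in WT libraries. These shares lay close together within each group and far apart between them, in Wtap KO 3 and in WT 1 as well as in the others. Exon 1 of Maf-201, 1342 of its 3223 bases, lies wholly within Maf-202. The split of Maf thus rests on kallisto's assignment of shared reads, whose error is not given. The log-ratio of Maf-201 to the rest of the gene rose by 1.56 ± 0.18 (SE) on the log2 scale and passed the usage test (limma adjusted p = 0.0443). Maf-202 mirrors this value, since the gene has no other transcript in the files, so the 2 calls are 1 result. Of 12 transcripts of 4 regulators tested for usage, 2 were called, both of Maf, against 0.325% of all 39137 transcripts tested. The log-ratio ran from 1.42 to 1.65 with libraries left out, but the call was lost without any single library (limma adjusted p 0.0692 to 0.226). Maf-201 was also not called in edgeR's diffSpliceDGE (adjusted p = 0.969). With the gene total as offset, edgeR called Maf-202 (adjusted p = 0.0469) and not Maf-201 (0.77, adjusted p = 0.0633). Both kept the direction. They measure a transcript against its whole gene and not against the rest of it, so their sizes are not comparable with the log-ratio.

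Maf-202 shares bases with a gene on the other strand. Gm15655 (ENSMUSG00000086717, chromosome 8, 115705078 to 115707233, plus strand) overlaps 440 exonic bases of Maf-202, which is 6.92% of that transcript, and none of Maf-201. Gm15655 was at 16.2, 13.04 and 24.4 TPM in Wtap KO libraries and at 8.80, 27.7 and 29.3 TPM in WT libraries. It was low and high in the same libraries as Maf-202, at 5.53 to 7.06 times the TPM of Maf-202. The strand setting of the counting is not given, so it is not known whether the counting kept reads of Gm15655 apart from those of the overlapped bases of Maf-202. Its part in the Maf-202 share was not tested.

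**Figure D3:**
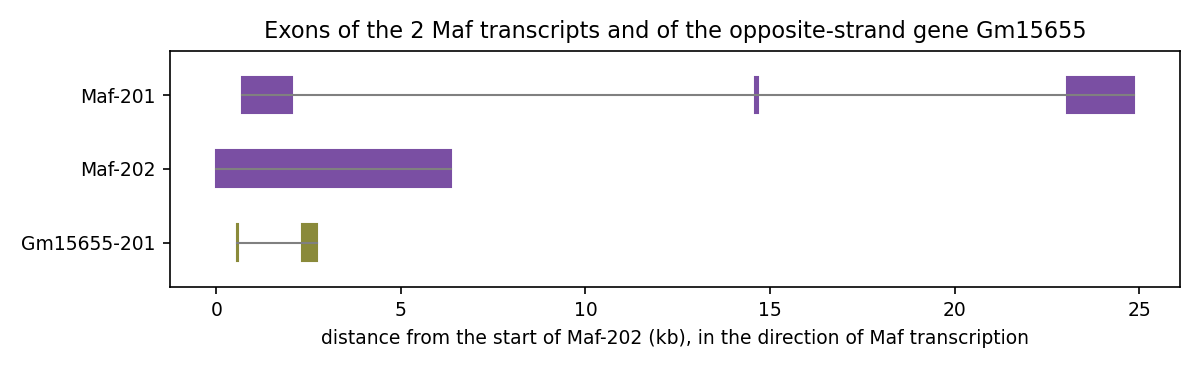
Map of the exons (boxes) of Maf-201, Maf-202 and the opposite-strand transcript Gm15655-201, as distance in kb from the start of Maf-202 in the direction of Maf transcription. Maf-201 has 3 exons, Maf-202 is a single exon of 6360 bases, and both exons of Gm15655-201 lie within Maf-202 and outside the exons of Maf-201.

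**Figure D4:**
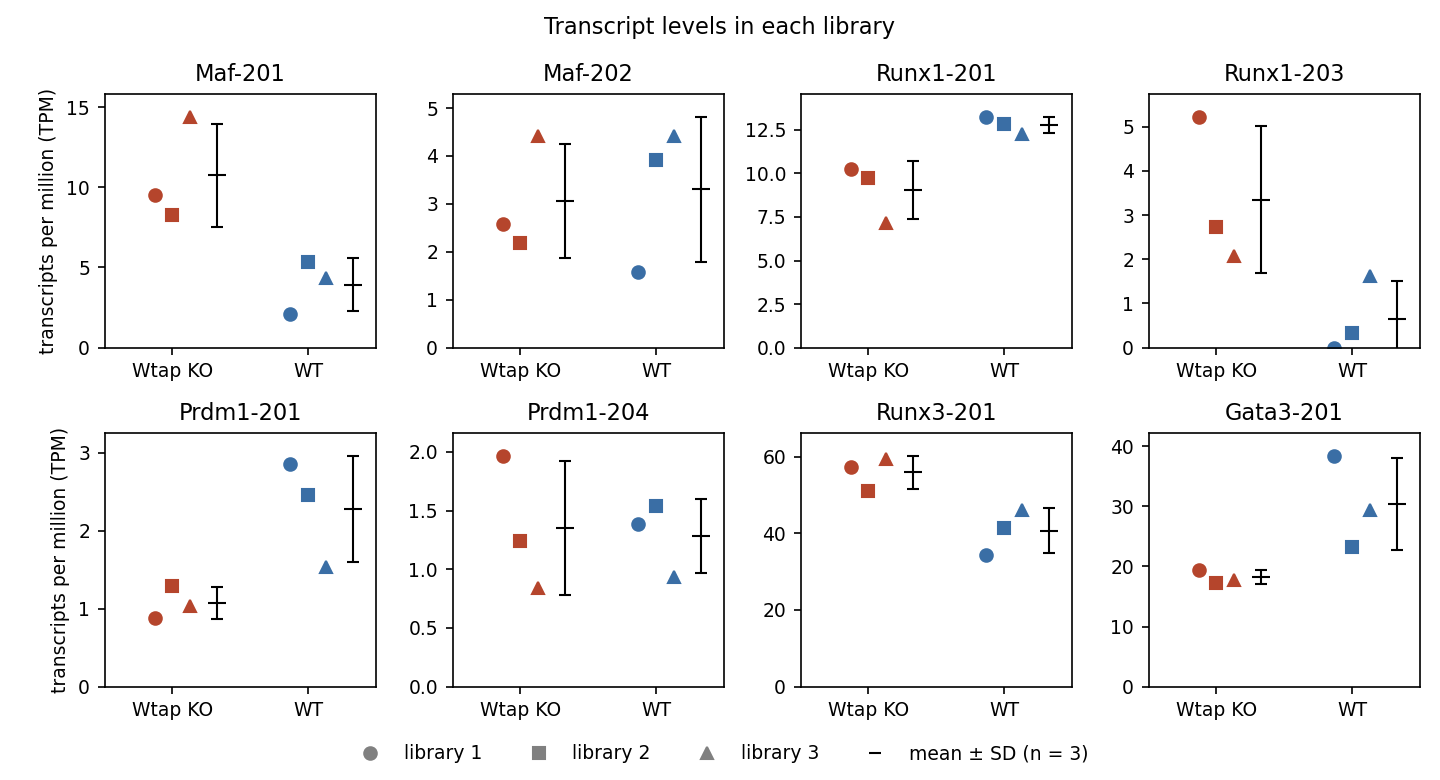
Levels of 8 transcripts of Maf, Runx1, Prdm1, Runx3 and Gata3 in every library, in TPM (each vertical axis from 0), with Wtap KO libraries in red left of WT libraries in blue and the mean ± SD (n = 3) in black. Within each gene, the transcripts shown had the smallest p in edgeR's transcript test. Maf-201, Runx1-203 and Runx3-201 lie higher in all 3 Wtap KO libraries, Runx1-201, Prdm1-201 and Gata3-201 lie lower, and Maf-202 and Prdm1-204 overlap. These 6 are the only ones without overlap among the 16 tested transcripts of the 8 regulators. The lower bar of Runx1-203 in WT is cut at 0.

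Over all their transcripts, the 8 regulators had 31 in the files, of which 15 reached a mean of 0.5 TPM in either group and 16 could be tested. Of these 16, 0 were called in edgeR's quasi-likelihood test of transcript levels, against 0.72% of 46935 transcripts tested, and limma on log2(TPM + 0.1) also called 0. At an unadjusted p under 0.05 the edgeR test had 2 of the 16 higher and 3 lower, against 7.85% higher and 6.49% lower over all transcripts tested, 14.3% in either direction. In 6 of the 16 the libraries did not overlap by TPM, which held for 22.7% of all transcripts tested. The letters GGACT, a core of the m6A motif, occurred once in the 3223 bases of Maf-201 and 10 times in the 6360 bases of Maf-202, or 0.310 and 1.57 per kb, with a median of 0.976 per kb over the transcripts tested. Tbx21-201 had 2.01 per kb and Gata3-201 had 0.933. Methylation was not measured in these libraries.

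Levels of different genes were compared on the TPM scale. In Wtap KO cells Runx3 was by far the highest, at 58.8 ± 4.57 TPM (SD, n = 3). Gata3 at 18.6 ± 0.880, Runx1 at 16.6 ± 5.36, Maf at 13.8 ± 4.42 and Tbx21 at 13.5 ± 5.26 TPM followed, each overlapping its neighbour in that order. Prdm1 at 2.42 ± 0.501, Eomes at 0.672 ± 0.148 and Hlx at 0.380 ± 0.068 TPM came last, each separate from the next. In WT cells Runx3 at 43.9 ± 6.31 and Gata3 at 31.0 ± 7.51 TPM overlapped at the top and were separate from Runx1 at 17.9 ± 0.643 TPM. Tbx21 at 8.05 ± 3.02, Maf at 7.23 ± 3.09 and Prdm1 at 3.59 ± 0.925 TPM formed an overlapping chain, as did Eomes at 0.794 ± 0.191 and Hlx at 0.435 ± 0.345 TPM. Gata3 averaged above Tbx21 in both groups. Their libraries overlapped in Wtap KO, with the lowest Gata3 at 18.03 TPM and the highest Tbx21 at 19.3 TPM, and were separate in WT, with the lowest Gata3 at 24.1 TPM and the highest Tbx21 at 11.3 TPM.

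Genes around these regulators were described from 4 lists. Among 39 tested partners, rivals and relatives of the 8, 2 rose, 2 fell and 35 did not pass, or 10.3% called against 9.23% of all genes, with a median log2 fold change of 0.21. Bhlhe40, a factor that restrains Il10 in Th1 cells, was at 168, 182 and 158 CPM in Wtap KO libraries and 57.8, 42.4 and 66.9 CPM in WT libraries (log2 fold change 1.60 ± 0.16 SE, edgeR adjusted p = 0.00177). The groups were far apart and the call held without any single library. The inhibitors of E proteins, Id2 and Id3, went opposite ways: Id2 averaged 138 ± 20.2 CPM in Wtap KO and 85.4 ± 9.45 CPM in WT, and Id3 12.6 ± 3.35 CPM in Wtap KO and 25.1 ± 6.42 CPM in WT (SD, n = 3 each). Tox, a factor of CD4 lineage development and of exhaustion, was at 14.9 ± 1.91 CPM in Wtap KO and 24.7 ± 5.83 CPM in WT. Id2, Id3 and Tox were called by edgeR (adjusted p 0.0184, 0.0351 and 0.0429) and each lost the call without any single Wtap KO library and without WT 2.

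Of 19 tested genes known as targets of T-bet, Eomes or Runx3, 2 rose and 17 did not pass (10.5% called, median log2 fold change 0.22). They were the chemokine Ccl5, at 32.5, 39.9 and 27.2 CPM in Wtap KO libraries and 16.0, 22.1 and 18.4 CPM in WT libraries, and the integrin chain Itgae, at 6.82, 6.10 and 5.18 CPM in Wtap KO libraries and 1.91, 3.84 and 3.27 CPM in WT libraries. The edgeR adjusted p was 0.0254 for Ccl5 and 0.0477 for Itgae. Ccl5 lost the call without Wtap KO 1 or 2, and Itgae without any library but WT 1, with an adjusted p of up to 0.178. With the DESeq2 Wald test 2 of the 19 were higher and 2 lower, against 1365 higher and 1211 lower of all 17610 genes.

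Of 12 tested genes known as targets of GATA3 or c-Maf, 3 rose and 9 did not pass, and Il10, Il24, Il5 and Ptgdr2 had too few counts. That was 25% called against 9.23% of all genes, with a median log2 fold change of 0.70. The list was chosen with earlier results of these libraries known, so the share called is no test. It pools targets of GATA3 with targets of c-Maf, so its median has no expected sign. At an unadjusted p under 0.05 the edgeR test had 6 of the 12 higher and 1 lower, against 26.3% of all genes tested in either direction. At that p the 39 related regulators had 11 higher and 4 lower. The 19 targets of T-bet, Eomes or Runx3 had 6 higher and 3 lower, and the 15 of Blimp-1 had 6 higher and 2 lower. Il21, a cytokine that c-Maf activates, was at 11.2, 14.9 and 14.2 CPM in Wtap KO libraries and at 0.166, 0.781 and 0.164 CPM in WT libraries (log2 fold change 5.21 ± 0.47 SE, edgeR adjusted p = 0.00117). With WT levels this low, the size of the change varied. It ran from 2.74 to 5.63 under the other settings and from 4.86 to 6.32 with libraries left out. Il1rl1, the IL-33 receptor of Th2 cells, was at 1.49, 2.16 and 3.50 CPM in Wtap KO libraries and at 0.525, 0.969 and 0.845 CPM in WT libraries. The groups were separate for both, with Wtap KO above WT. Lif, a cytokine, was at 21.8, 15.5 and 6.42 CPM in Wtap KO libraries and 3.98, 5.91 and 3.05 CPM in WT libraries. Il1rl1 and Lif were called (edgeR adjusted p 0.0325 and 0.0426) but lost the call, Il1rl1 without WT 2, Wtap KO 2 or Wtap KO 3 (adjusted p up to 0.0999) and Lif without any library but Wtap KO 3 (up to 0.209), whereas Il21 kept it.

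Of 15 tested genes known as targets of Blimp-1, 2 rose, 2 fell and 11 did not pass. The share called was 26.7%, against 9.23% of all genes, and the median log2 fold change was 0.43. The list does not separate genes that Blimp-1 lowers from genes that it raises, so its median has no expected sign. Ccr7, a homing receptor of naive cells, was at 758, 755 and 637 CPM in Wtap KO libraries and 332, 364 and 448 CPM in WT libraries (edgeR adjusted p = 0.00681). Cxcr5, the follicular homing receptor, was at 3.43, 3.52 and 1.95 CPM in Wtap KO libraries and 0.939, 1.16 and 0.627 CPM in WT libraries (edgeR adjusted p = 0.0173). Ctla4, an inhibitory receptor, was at 94.0, 109 and 102 CPM in Wtap KO libraries and 217, 194 and 147 CPM in WT libraries (edgeR adjusted p = 0.0112), and Id3, named above, was the other that fell. Ccr7 kept its call without any single library, while Cxcr5 lost it without Wtap KO 1 or 2 and Ctla4 without Wtap KO 1 or 3. With limma on log2(TPM + 1), Id3, Tox, Itgae, Il1rl1, Lif and Cxcr5 were no longer called (adjusted p 0.0501 to 0.102). The targets of 1 factor are also under the control of others, and the lists were chosen with earlier results of these libraries known.

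**Figure D5:**
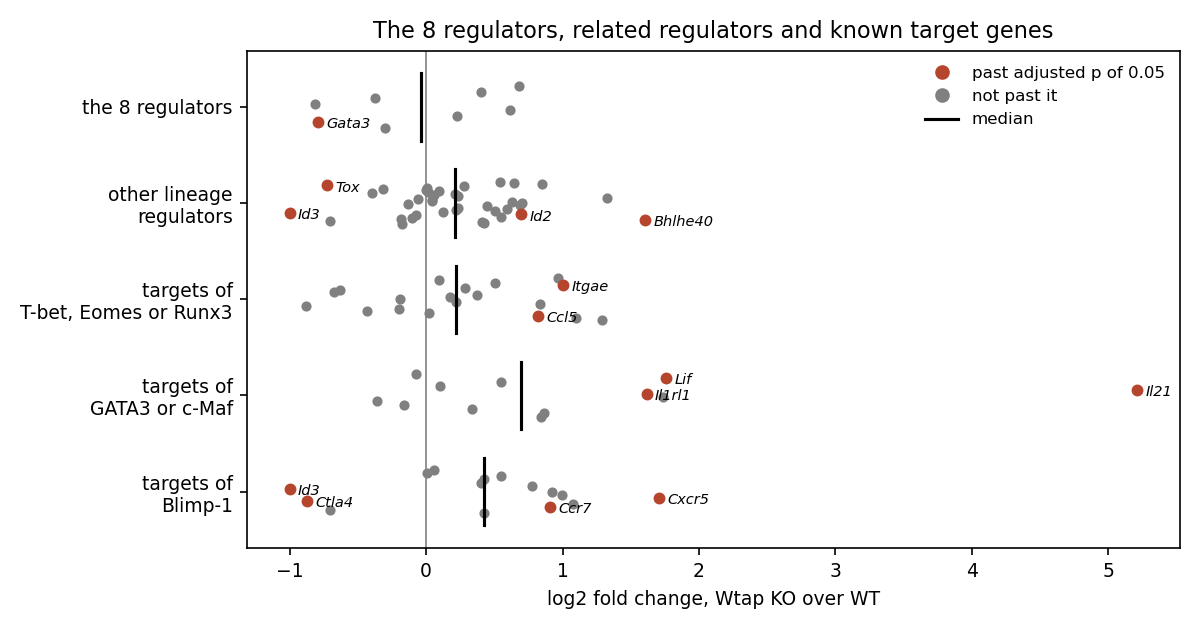
Log2 fold change, Wtap KO over WT, of the 8 regulators and of the genes tested in 4 related lists, with 1 point a gene, red where the edgeR adjusted p is under 0.05, and a black line at each list's median. Il21 at 5.21 stands far from the rest, and medians run from -0.04 for the 8 regulators to 0.70 for the targets of GATA3 or c-Maf.

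Other cells that carry these factors were looked for by their markers, summed in TPM. NK and innate lymphoid markers (6 genes), whose cells carry Tbx21, Eomes and Runx3, summed to 71.5 to 89.6 in Wtap KO libraries and 64.8 to 145 in WT libraries. Most of this was Klrd1, at 67.9 ± 7.48 TPM in Wtap KO and 92.2 ± 36.4 TPM in WT (SD, n = 3 each). Klrk1 followed, at 13.6 ± 3.33 TPM in Wtap KO and 7.48 ± 4.88 TPM in WT. The groups overlapped for both and neither was called, and Ncr1 was at no more than 0.0714 TPM anywhere. Regulatory T cell markers, Foxp3 and Ikzf2, summed to 11.2 to 12.0 in Wtap KO libraries and 5.82 to 9.81 in WT libraries, without overlap, and neither gene was called. Markers of CD8 T cells, where Runx3 is also active, summed to 11.4 to 13.9 in Wtap KO libraries and 7.18 to 7.79 in WT libraries, with Cd8b1 higher as given above. Plasma cell markers, for cells rich in Blimp-1, summed to 0.997 to 1.38 TPM in Wtap KO libraries and 0.209 to 0.713 TPM in WT libraries, without overlap. Most of this was Jchain, at 1.05 ± 0.151 TPM in Wtap KO and 0.423 ± 0.275 TPM in WT, which was not called (edgeR adjusted p = 0.149). Sdc1 and Tnfrsf17 had too few counts to be tested. The part of regulatory and CD8 T cells in the values of Runx3, Gata3, Maf and Prdm1 was not tested. Dendritic cell markers summed to 0.690 to 0.774 TPM in Wtap KO libraries and 0.389 to 0.515 TPM in WT libraries, without overlap, and none of these genes was called. Macrophage and monocyte markers summed to 3.90 to 7.28 TPM in Wtap KO libraries and 3.68 to 5.91 TPM in WT libraries. Of these markers, Itgam was called higher, at 7.43 ± 1.61 CPM in Wtap KO and 3.79 ± 0.899 CPM in WT (SD, n = 3 each, edgeR adjusted p = 0.0353). Cd68 went the other way, at 1.80 ± 0.0700 CPM in Wtap KO and 2.57 ± 0.435 CPM in WT. Its groups did not overlap and it was not called (edgeR adjusted p = 0.174). Sums of B cell markers (3.16 to 4.41 TPM in Wtap KO libraries, 1.98 to 3.45 TPM in WT libraries), granulocyte and mast cell markers (1.68 to 4.48 and 0.487 to 2.49 TPM in the same order) and erythroid and platelet markers (3.43 to 8.32 and 1.32 to 6.73 TPM) overlapped, and S100a9 was listed at 0 in all. The part of these cells in the values of the regulators was not tested.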

How the data were processed

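RNA of 6 libraries was sequenced as pairs of 50 bp after a Lexogen SENSE mRNA kit, per the labels' protocols. The authors deposited 1 table per library with estimated counts and TPM values for 142647 transcripts; kallisto 0.44.0, DESeq2 and GRCm38 (mm10) are named in the submitters' processing notes. kallisto splits reads that fit several transcripts, so estimated counts need not be whole; neither the index release nor the strand setting is given in the sources used here. Transcripts were matched to GENCODE M21 by identifier (99.15%; 1218 unmatched were left out), and the sum per gene was rounded to a whole number.

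Genes and transcripts were tested with edgeR 4.0.16 (R 4.3.3; quasi-likelihood, robust, TMM, filterByExpr) and usage with limma 3.58.1 on log2((transcript + 0.5)/(rest of the gene + 0.5)), genotype as the only term, Benjamini-Hochberg adjusted over all features tested. CPM uses TMM library sizes. SE is the absolute log2 fold change over the square root of F for edgeR. Scripts were tested on simulated data. Alternatives were DESeq2 1.42.0, other scaling and offsets, no filter, limma on log TPM, a replicate block and each library left out. Named genes were the 8 regulators, their transcripts with a mean of at least 0.5 TPM in either group, Wtap, up to 6 called genes per direction of each list and the 3 nearest to a called regulator. The members and lists were chosen with earlier results of these data known.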

Additional observations from a re-analysis of the deposited data

How the results depend on the processing

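Values are Wtap KO against WT. With 1 library left out in turn, genes called ran from 361 to 2282, and they numbered 2576 with DESeq2 and 1061 with the replicate block, against 1626. Of these calls 62.2% were higher, and 73.8% with limma on log2(TPM + 1). Regulators called numbered 2, both lower (Gata3 and Prdm1), with the DESeq2 Wald test, DESeq2 size factors, no filter, the GC offset and the replicate block, and 0 with limma on log2(TPM + 1); with libraries left out they ran from 0 to 3, of which 0 to 1 higher and 0 to 2 lower. Gata3 was at -0.68 with that limma fit and ran from -0.96 to -0.60 with libraries left out. Prdm1 passed at -0.83 with DESeq2 and with its size factors (adjusted p 0.00476 and 0.0470), -0.82 with no filter (0.00748), -0.83 with the GC offset (0.0376) and -0.80 with the replicate block (0.0324), and ran from -1.01 to -0.67 with libraries left out, as did Runx3 from 0.28 to 0.52. Hlx reversed, at -0.029 with limma on log2(TPM + 1) and -0.27 with the length offset, and ran from -0.27 to 0.70.

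The Maf usage ratio was 1.56 for Maf-201 and -1.56 for Maf-202 with the replicate block, not called (limma adjusted p = 0.288). With libraries left out it ran from 1.42 to 1.65 and from -1.65 to -1.42. Measured against the whole gene, Maf-201 and Maf-202 were at 0.78 and -0.79 with diffSpliceDGE, and Maf-201 at 0.77 with the gene-total offset. These sizes are not comparable with the ratio to the rest of the gene. Member transcripts called for usage numbered 2 in the limma test, 0 with diffSpliceDGE, 1 with the offset, and 0 with the block and without each library in turn. Uncalled transcript values near 0 changed sign: Prdm1-204 was at -0.028 with the block and ran from -0.32 to 0.29 with libraries left out, Maf-202 from -0.50 to 0.12, Runx1-204 from -0.76 to 0.25, Runx1-207 from -0.21 to 0.022 and Runx3-206 from -0.021 to 0.37; usage ratios of Runx1-204 ran from -0.38 to 0.46 and of Runx3-201 from -0.20 to 0.27, with -7.2e-06 in diffSpliceDGE.

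Calls among related regulators (4) were 11 with DESeq2, 8 with no filter, 7 with the GC offset and 1 to 8 with libraries left out. T-bet, Eomes or Runx3 targets (2) were 4 with DESeq2, 1 with either limma fit, the length offset and upper-quartile factors, and 0 to 4; GATA3 or c-Maf targets (3) were 5 with DESeq2, 1 with limma on log2(TPM + 1), and 1 to 3; Blimp-1 targets (4) were 2 with either limma fit, and 1 to 6. The cause of these shifts was not tested. Same-numbered libraries correlated in their deviations at -0.103, 0.0502 and 0.140 for numbers 1 to 3, and only Wtap KO 3 correlated best with its own number, so the numbers were not taken as pairs. Low counts limit Hlx and Eomes most.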
